A study of Mus musculus with 12 samples.

Results

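The hearts of mice without thymidine kinase 2 were compared with wild-type hearts on 6 microarrays, 3 of *Tk2* -/- and 3 of *Tk2* +/+ heart, out of 12 in a series that also holds hind limb skeletal muscle. Arrays were taken by the tissue and genotype in their labels, and every gene read by a probe set of its own was a member of the comparison, 18820 genes in all. Both groups were C57BL/6 mice 11 days old, and the genotype at *Tk2* was the labelled difference between them. *Tk2* -/- mice were homozygous knockouts born to heterozygous parents and *Tk2* +/+ mice carried both normal copies, with no other allele and no agent in either group. The knockout acts in every tissue from conception, so that a heart value can also follow from what happens elsewhere in the animal. Each array held the heart RNA of a different mouse, and the sources used here do not state the sex of the mice, how they had been fed, or how much of the atria was taken with the ventricles.

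Thymidine kinase 2 is the mitochondrial enzyme that phosphorylates thymidine and deoxycytidine, and a cell that no longer copies its nuclear DNA depends on it for the building blocks of mitochondrial DNA. Mitochondrial DNA encodes core subunits of the respiratory chain, on which the heart relies for nearly all of its ATP. In mice the weeks after birth are also when cardiomyocytes stop dividing, turn from glucose to fatty acids and exchange fetal for adult forms of their contractile proteins, so that the genes of division, fuel use and the sarcomere are all in motion at 11 days.

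Signal here means the linear intensity of a probe set after the 6 heart arrays had been brought to the same distribution (quantile normalization), and a log2 fold change is *Tk2* -/- minus *Tk2* +/+ in log2(signal + 16), which understates the change of dim genes. The normalization was needed because the deposited values of the *Tk2* -/- arrays were dimmer as a whole, with an array mean between 146.7 and 168.4 against 227.4 to 242.6. Over all genes the log2 fold change had a median of -0.28 as deposited, after quantile normalization it was 0.0022, and with upper quartile scaling 0.16. A change shared by most genes can therefore not be seen in the values below, which give each gene relative to the rest of its array.

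Cardiomyocyte genes were read first, and their counts compare the genotypes and are by themselves no check of the tissue label. Of 24 measured cardiomyocyte genes, 3 were higher, 3 lower and 18 did not pass the threshold in *Tk2* -/- heart, and the sum of their signals ran from 80706 to 82548 in *Tk2* +/+ and from 78152 to 82224 in *Tk2* -/- arrays. Cardiac troponin T (*Tnnt2*) had signals of 6131, 6450.4 and 6229.7 in *Tk2* +/+ and 7242, 6918 and 7464 in *Tk2* -/- heart, and cardiac troponin I (*Tnni3*) 5932, 6247 and 6247 and 6691, 6542 and 6918. In bulk tissue, fewer cells of a type and less RNA of that type per cell cannot be told apart, here and in all that follows. *Tk2* itself read 55.9, 62.2 and 68.7 in *Tk2* +/+ and 32.2, 52.6 and 39.1 in *Tk2* -/- heart (log2 fold change -0.46, SE 0.13, adjusted p = 0.0304), and the signals of the genotypes did not overlap, which was also so for 42.8% of all genes. No source used here says which part of *Tk2* its probes read and which part was deleted, and its value is therefore no check of the genotype labels. Leaving out 1 array ended the call on *Tk2* without *Tk2* +/+ replicate 2 or 3 or *Tk2* -/- replicate 1 or 3 (adjusted p = 0.0656 to adjusted p = 0.109). *Xist*, transcribed from the inactive X chromosome, was near 0 in *Tk2* +/+ replicate 2 and between 896 and 1198 in the other 5 arrays, so that array was also left out in turn.

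Genes of the atria differed between arrays more than between genotypes. The atrial myosin light chain gene *Myl7* had signals of 13, 478 and 2103 in *Tk2* +/+ and 2481, 172 and 2366 in *Tk2* -/- heart, listed by replicate. *Myl4*, the other atrial light chain, read 201, 2092 and 6070.2 and 5669.6, 832 and 5068, and the atrial growth factor gene *Bmp10* 6.35, 1449 and 4071 and 5266, 10.5 and 938. *Tk2* +/+ replicate 1 and *Tk2* -/- replicate 2 were thus the arrays lowest in atrial RNA in their groups, and *Tk2* +/+ replicate 3 and *Tk2* -/- replicate 1 were among the highest. Of 14 atrial and conduction system genes, the pacemaker channel gene *Hcn4* fell (-0.87), none was higher and 13 did not pass, sarcolipin (*Sln*, 1.3, adjusted p = 0.421) and *Nppa* (1.51, adjusted p = 0.123) included. Their summed signal ran from 1384 to 19175 in *Tk2* +/+ and from 5653 to 22310.0 in *Tk2* -/- arrays. Results were therefore also computed without these 2 arrays, and with the mean log2 signal of *Myl4*, *Myl7*, *Sln* and *Bmp10* as a covariate.

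**Figure D1:**
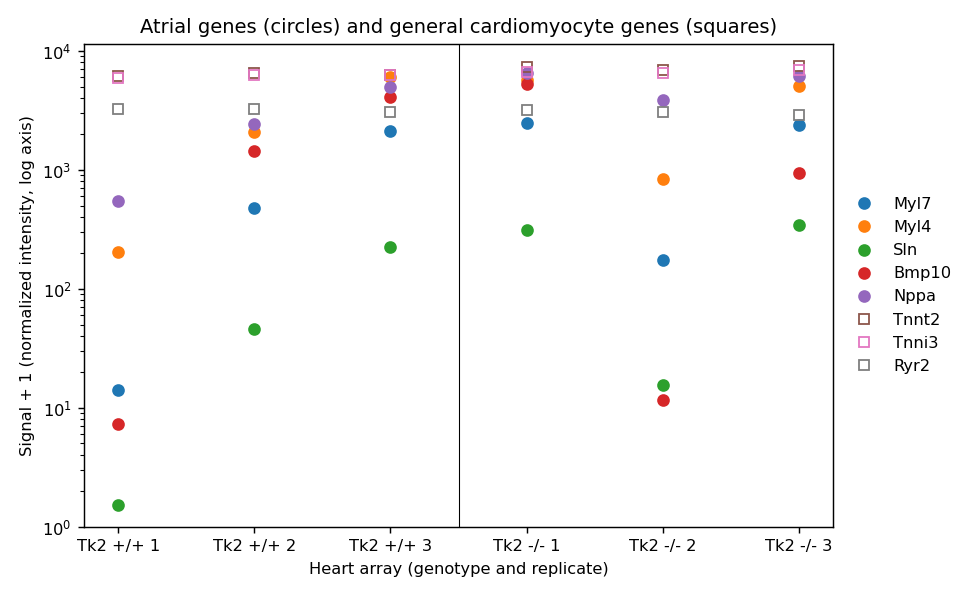
Signal of 5 atrial genes and of 3 genes of all cardiomyocytes on each of the 6 heart arrays (log axis, signal plus 1, after quantile normalization). Each point is 1 array, and the atrial genes are low in *Tk2* +/+ replicate 1 and *Tk2* -/- replicate 2, while *Tnnt2*, *Tnni3* and *Ryr2* lie close together on all 6.

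Over all 18820 genes, 2149 were higher (11.4%) and 3024 lower (16.1%) in *Tk2* -/- heart at a Benjamini-Hochberg adjusted p under 0.05 in limma. These percentages are the background against which each gene group below is to be read. Groups share members and were drawn up with earlier results of these data known, so their counts are not independent. A change of at least 2-fold that also passed was found for 178 genes that were higher and 316 that were lower. With the atrial covariate the counts were 1869 and 2747, and of the called genes named here *Igf2* (adjusted p = 0.0567), *Kcnd3* (0.0533) and *Pdgfra* (0.0621) no longer passed. Without both arrays lowest in atrial RNA *Clock*, *Corin*, *Cxcl1*, *Dio2*, *Igf1*, *Igf2*, *Nppb* and *Pdgfra* did not pass, with an adjusted p between 0.054 (*Cxcl1*) and 0.221 (*Igf2*). Other named genes, not called in the comparison above, passed with these settings. With the covariate they were *Irf1*, *Npas2*, *Nppa* and *Per1* (beside *Bmp10* and *Myl7*, which are part of it). Without both arrays they were *Irs2*, *Mt3*, *Npas2*, *Per1*, *Vegfa* and *Wt1*. Some of these, such as *Irf1* and *Vegfa*, also passed with the values as deposited. The split between higher and lower rests on the scaling, since 41.5% of the calls were higher here, 3.39% with the values as deposited, 20.9% with median centring and 69.2% with upper quartile scaling.

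**Figure D2:**
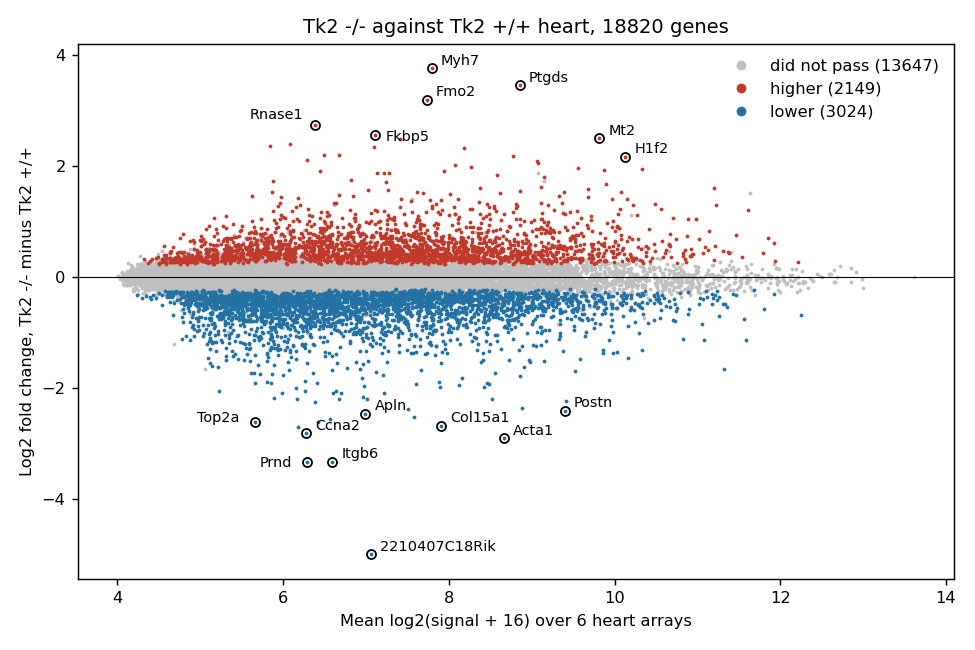
Log2 fold change of each of 18820 genes (vertical axis) against its mean log2(signal + 16) over the 6 heart arrays (horizontal axis). Red points are the 2149 genes higher and blue points the 3024 genes lower in *Tk2* -/- heart, grey points did not pass, and the labelled genes are among the 15 largest increases and 15 largest decreases.

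*Myh7*, the slow β-myosin heavy chain of the fetal ventricle, showed the largest increase. Its signal was 56.3, 31 and 48.9 in *Tk2* +/+ and 902, 302 and 1867 in *Tk2* -/- heart (log2 fold change 3.76, SE 0.52, adjusted p = 0.00151). The lowest *Tk2* -/- array was replicate 2, the one low in atrial RNA, and even there the signal was above every *Tk2* +/+ array. With the atrial covariate the log2 fold change was 3.6 (adjusted p = 0.00169), and without both arrays low in atrial markers it was 4.55 (adjusted p = 0.000476). *Myh6*, its adult neighbour and near copy, had no probe set of its own, and how far the probes of *Myh7* read *Myh6* was not tested.

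Other fetal and stress genes of the heart went in both directions. Skeletal α-actin (*Acta1*), which the fetal and the overloaded ventricle express, fell from 1116, 1019 and 1182 to 138, 139.8 and 119 (log2 fold change -2.92, SE 0.093, adjusted p = 4.69e-06), with the genotypes far apart on all 6 arrays. *Casq1*, the skeletal form of the calcium store protein calsequestrin, read 505, 526 and 326 in *Tk2* +/+ and 73.3, 80.6 and 42.9 in *Tk2* -/- heart (-2.52). The natriuretic peptide gene *Nppb* rose (0.68), as did *Ankrd1* (0.69), a stretch-responsive repeat protein of the sarcomere, and the matricellular gene *Ccn2* (1.95). Atrial natriuretic peptide (*Nppa*) overlapped between genotypes at 542, 2416 and 4981 and 6542, 3846 and 6131, lowest in the *Tk2* +/+ array lowest in atrial genes. The log2 fold change of *Nppa* was 1.51 (adjusted p = 0.123), with the atrial covariate 1.09 (adjusted p = 0.0311) and without both arrays low in atrial markers 0.86 (adjusted p = 0.0866). In all, 5 of 15 such genes were higher and 8 lower, with a median log2 fold change of -0.27, and smooth muscle actin (*Acta2*, -1.67), *Xirp2* (-0.98) and *Postn* (-2.42) were among the lower ones. With 1 array left out, the call was lost for *Ankrd1* without *Tk2* +/+ replicate 1 or 2 or *Tk2* -/- replicate 1, 2 or 3 (adjusted p = 0.0508 to adjusted p = 0.146) and *Nppb* without *Tk2* -/- replicate 1 (adjusted p = 0.0522).

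Of 26 contractile proteins of the sarcomere, 5 were higher and 5 lower, and most of the abundant ones differed little. The ventricular light chains *Myl2* (-0.20, adjusted p = 0.117) and *Myl3* (-0.013, adjusted p = 0.92) and cardiac α-actin (*Actc1*, -0.20, adjusted p = 0.144) did not pass. M-band protein *Myom2* rose (1.2), with signals of 1931, 1836 and 2389 and 5021, 4459.5 and 4693 that did not overlap, and *Tcap* rose by 0.56 (below 0 as deposited, -0.12). *Tnnt1*, the slow skeletal troponin T, fell (-1.02), as did *Ldb3* (-0.48). The median over the group, 0.06, was below 0 as deposited and with median centring. Among 20 genes of skeletal muscle fibres, 5 were lower and none higher, *Acta1* and *Casq1* by far the most, while the fast myosin heavy chain *Myh1* (-0.081, adjusted p = 0.819) did not pass. Their summed signal was 7254 to 7354 in *Tk2* +/+ and 5172 to 5392 in *Tk2* -/- heart.

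Among 23 genes of calcium handling, 1 was higher and 6 were lower. The calcium pump *Atp2a2* (-0.095, adjusted p = 0.407) and its inhibitor phospholamban (*Pln*, 0.081, adjusted p = 0.478) did not pass. The T-type calcium channel gene *Cacna1g*, which fades from the ventricle after birth, fell by 1.02 on the log2 scale, and *Casq2* fell too (-0.48). The L-type channel gene *Cacna1c* was the higher one (0.59, and -0.092 as deposited). Among 19 potassium, sodium and pacemaker channel genes, 4 were higher and 6 lower. *Kcne1*, a subunit of the slow delayed rectifier, fell from 814, 479 and 438 to 180.2, 349.7 and 101 (-1.49) without overlap. The transient outward channel genes moved apart, with *Kcnd2* lower (-0.61) and *Kcnd3* (0.36) and their partner *Kcnip2* (0.54) higher, both of which were below 0 as deposited, and the inward rectifier *Kcnj12* was higher as well (0.60). Of 20 genes of natriuretic, adrenergic and angiotensin signalling, 8 were higher and 3 lower. These included the adenylyl cyclase *Adcy6* (1.06), the peptide-processing protease *Corin* (0.65) and the angiotensin receptor *Agtr1a* (0.68) on the higher side, and *Rgs4* (-0.80) on the lower. The call did not hold for *Casq2* without *Tk2* -/- replicate 1 or 3 (adjusted p = 0.0547 to adjusted p = 0.0607), *Kcne1* without *Tk2* +/+ replicate 1 or *Tk2* -/- replicate 1 or 3 (adjusted p = 0.0547 to adjusted p = 0.0669), *Kcnd3* without *Tk2* +/+ replicate 1 or 2 or *Tk2* -/- replicate 1 or 3 (adjusted p = 0.115 to adjusted p = 0.157), *Rgs4* without *Tk2* -/- replicate 1 (adjusted p = 0.0572) and *Corin* without *Tk2* -/- replicate 1 (adjusted p = 0.077).

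Genes of cell division fell almost without exception. Of 32 genes of mitosis, 29 were lower (90.6% against 16.1% of all genes), none was higher and 3 did not pass, with a median log2 fold change of -1.2. *Mki67*, the marker of cycling cells, had signals of 266, 152 and 117 in *Tk2* +/+ and 9.59, 14.9 and 12.8 in *Tk2* -/- heart (log2 fold change -2.7, SE 0.23, adjusted p = 0.000288). Cyclin A2 (*Ccna2*) read 311, 156 and 140.0 and 13.5, 14.2 and 11.6 (log2 fold change -2.83, SE 0.24, adjusted p = 0.000285), and cyclin B2 (*Ccnb2*) 314, 154 and 156 and 16.1, 24.1 and 16.6 (log2 fold change -2.61, SE 0.24, adjusted p = 0.000298). In each of these genes all *Tk2* -/- signals were close to the floor of the array, and *Tk2* +/+ replicate 1 was above the other *Tk2* +/+ arrays. The mitotic kinase *Cdk1* (-2.19), topoisomerase IIα (*Top2a*, -2.62) and the spindle proteins *Prc1* (-2.06) and *Kif11* (-1.92) fell likewise. Summed over the group, the signal was 1920.3 to 3564 in *Tk2* +/+ and 715 to 785 in *Tk2* -/- heart.

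Promoters of mitotic genes share 2 short sequences, the CCAAT box and the cell cycle homology element TTTGAA, that are known for holding such genes silent outside the cell cycle and driving them late in it. The promoters of *Ccnb2*, *Cdk1* and *Top2a*, 3 mitosis genes that fell, are shown as examples that hold both. They were not chosen by the size of the fall, and *Ccna2* and *Mki67* fell more. Each runs from 250 bases before to 50 after the start of the gene on its own strand. Every CCAAT and TTTGAA on either strand is in capitals (RefSeq, GRCm38.p6).
*Ccnb2*, chr9:70421505-70421804, minus strand: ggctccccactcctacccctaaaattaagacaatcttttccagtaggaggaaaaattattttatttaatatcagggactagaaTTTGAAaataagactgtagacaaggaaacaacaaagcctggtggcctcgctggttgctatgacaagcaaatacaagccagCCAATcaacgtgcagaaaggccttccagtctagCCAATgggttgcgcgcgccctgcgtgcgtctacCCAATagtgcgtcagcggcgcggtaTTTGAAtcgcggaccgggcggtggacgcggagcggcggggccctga
*Cdk1*, chr10:69352863-69353162, minus strand: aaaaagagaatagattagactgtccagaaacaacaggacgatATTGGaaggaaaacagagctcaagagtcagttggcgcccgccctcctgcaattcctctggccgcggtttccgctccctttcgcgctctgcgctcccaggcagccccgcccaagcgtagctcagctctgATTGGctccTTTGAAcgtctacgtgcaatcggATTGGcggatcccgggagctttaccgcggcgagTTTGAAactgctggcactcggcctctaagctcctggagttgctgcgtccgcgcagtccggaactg
*Top2a*, chr11:99024140-99024439, minus strand: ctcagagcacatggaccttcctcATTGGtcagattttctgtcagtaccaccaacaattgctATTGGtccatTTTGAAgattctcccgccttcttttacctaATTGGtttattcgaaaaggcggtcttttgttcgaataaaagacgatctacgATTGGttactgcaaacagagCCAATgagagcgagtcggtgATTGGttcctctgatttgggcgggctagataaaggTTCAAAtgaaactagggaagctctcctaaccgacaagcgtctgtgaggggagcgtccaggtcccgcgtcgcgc
Each held TTTGAA 2 times, and CCAAT was found 3 times in *Ccnb2*, 3 times in *Cdk1* and 6 times in *Top2a*. Of 28 mitosis genes with a promoter in the table, 21 held CCAAT (75%) and 22 TTTGAA (78.6%), where 41.1% and 20.2% of all 27025 genes with a promoter did. Both were held by 19 of the 28 (67.9%) and by 8.97% of all genes. Among 26 genes of replication, 69.2% held CCAAT and 15.4% TTTGAA. A match is a description of letters and not a site of binding.

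DNA replication genes fell by less. Of 31, 20 were lower and none higher (median -0.47), led by the helicase subunits *Mcm5* (-1.45) and *Mcm2* (-1.22), the primase subunit *Prim1* (-0.86) and the licensing factor *Cdt1* (-0.74). *Mcm3* was lower as well (-0.59). At the entry to the cycle, cyclin D1 (*Ccnd1*) fell from 673, 743 and 602 to 158, 153 and 160.1 (log2 fold change -1.99, SE 0.092, adjusted p = 4.06e-05). Cyclins D2 (*Ccnd2*, -0.84) and D3 (*Ccnd3*, -0.73), *E2f1* (-1.05) and *Mycn* (-1.28) fell with it. The inhibitor p21 (*Cdkn1a*) went the other way, from 326, 475 and 603 to 999.7, 1014 and 1129.7 (log2 fold change 1.17, SE 0.19, adjusted p = 0.00265). *Cdkn1b*, which encodes p27 (named after its value was seen, 0.73), the pocket protein gene *Rbl2* (likewise, 0.81) and *Myc* (1.12) were also higher, so that of 27 regulators of the first gap phase 4 were higher and 13 lower.

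Of 21 target genes of p53, which guards against damaged DNA, 8 were higher and 6 lower. *Sesn1*, a sestrin that restrains mTOR, rose by 1.67, *Trp53inp1* by 1.32, *Fas* by 0.97 and *Ccng2* by 0.97. The p53 inhibitor *Mdm2* (-0.14, adjusted p = 0.215) and the cell death gene *Bbc3* (0.30, adjusted p = 0.145) did not pass, and *Cdkn1a*, described above, rose. The direction of the group median (-0.075) flipped with upper quartile scaling.

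Of 27 genes that make or salvage nucleotides, 1 was higher and 14 lower (median -0.34). The small subunit of ribonucleotide reductase *Rrm2*, made in S phase, fell by 1.35 on the log2 scale, *Rrm1* by 0.85, dCMP deaminase (*Dctd*) by 1.31 and deoxycytidine kinase (*Dck*) by 0.84. Cytosolic thymidine kinase (*Tk1*, -0.34, adjusted p = 0.125) did not pass, nor did *Rrm2b*, the reductase subunit of resting cells (-0.14, adjusted p = 0.476, named after its value was seen), nor the mitochondrial purine kinase *Dguok* (likewise, -0.0079, adjusted p = 0.956). Of 23 genes that maintain mitochondrial DNA, 2 were higher and 5 lower. The polymerase subunit *Polg2* rose (0.59), *Polg* itself (0.25, adjusted p = 0.0592) and the helicase *Twnk* (-0.17, adjusted p = 0.221) did not pass, and *Exog* (-0.72) and *Primpol* (-0.66) fell.

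Nuclear genes of the respiratory chain moved little relative to the rest of the array. None of 35 subunits and factors of complex I was higher and 6 were lower, with log2 fold changes between -0.46 and 0.24, *Ndufb10* (-0.46) and *Ndufa2* (-0.46) the lowest. None of 40 genes of complexes II to V passed in either direction, between -0.30 and 0.21, at an adjusted p under 0.05 in limma, and 6 had an unadjusted p under 0.05. Neither did any of 34 cytosolic ribosomal protein genes (3 at an unadjusted p under 0.05). On the deposited scale 35 of 35, 40 of 40 and 33 of 34 of these genes were lower, and with upper quartile scaling 8 of the 40 were higher. Of 36 mitochondrial ribosomal protein genes 16 were lower and 1 higher (median -0.22), with *Mrpl19* the lowest (-0.85). Genes encoded by mitochondrial DNA had no probe set with a gene symbol of their own and were not analysed here.

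Genes that respond to amino acid shortage and to mitochondrial stress went both ways (median -0.15). Of 31, 5 were higher (16.1% against 11.4% of all genes) and 9 lower (29% against 16.1%). *Atf5*, *Ddit3*, *Gdf15* and *Pycr1*, which belong to this group, were not measured. *Atf4*, the transcription factor at the head of this response, did not pass (-0.15, adjusted p = 0.337), and *Fgf21*, a hormone released by stressed muscle, overlapped between genotypes (31.7, 42.9 and 18.9 and 46.3, 37.2 and 51.3). *Trib3* rose (0.69), while asparagine synthetase (*Asns*, -0.90), *Aldh18a1* (-0.92) and the mitochondrial chaperone *Hspd1* (-0.82) fell.

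Fuel genes changed member by member. Of 27 genes of glycolysis, lactate and glycogen, 6 were higher and 12 lower. *Pgam1* (-1.24), *Pfkl* (-1.05) and *Hk2* (-0.94), enzymes of glycolysis, fell. *Pfkfb3*, which makes the activator of phosphofructokinase, rose from 43.2, 40.8 and 54.3 to 191, 81.3 and 172 (1.33), and the fetal glucose transporter *Slc2a1* rose (0.80), whereas the adult transporter *Slc2a4* did not pass (-0.072, adjusted p = 0.759). Of 31 genes of fatty acid uptake and oxidation 6 were higher and 2 lower. The transporter *Slc27a1* (0.97) and *Acacb* (0.69), whose product restrains the entry of fatty acids into mitochondria, rose and *Cpt2* fell (-0.60), while *Cd36* (0.019, adjusted p = 0.91) and *Fabp3* (-0.24, adjusted p = 0.0699) did not pass. Of 26 genes of the TCA cycle and its supply, 1 was higher and 5 lower, with the ketone enzyme *Oxct1* at -1.14 and citrate synthase (*Cs*, -0.079, adjusted p = 0.471) not passing. Among 19 regulators of these pathways 5 were higher and 6 lower, with *Ppara* (-0.70) and *Ppargc1b* (-0.63) lower and *Klf15* (1.51) higher. Leaving out 1 array ended the call on *Cpt2* without *Tk2* +/+ replicate 2 or *Tk2* -/- replicate 1 or 3 (adjusted p = 0.0605 to adjusted p = 0.0897), *Oxct1* without *Tk2* -/- replicate 1 (adjusted p = 0.0546) and *Ppara* without *Tk2* -/- replicate 1 or 3 (adjusted p = 0.0509 to adjusted p = 0.0582).

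Genes known to respond to glucocorticoids rose together. Of 35, 21 were higher (60% against 11.4% of all genes), 2 lower and 12 did not pass, with a median of 0.89 that stayed above 0 under each of the scalings tried. *Fkbp5*, a co-chaperone of the glucocorticoid receptor and among its most direct targets, had signals of 33.2, 46.9 and 44.5 in *Tk2* +/+ and 354, 235 and 389 in *Tk2* -/- heart (log2 fold change 2.55, SE 0.18, adjusted p = 0.000245). The transcription factor *Zbtb16* read 270.2, 437 and 419.7 and 1597, 1287 and 1558 (log2 fold change 1.96, SE 0.17, adjusted p = 0.000288), and glutamine synthetase (*Glul*) 1104, 1333 and 1615 and 4432, 3716 and 4114 (log2 fold change 1.6, SE 0.14, adjusted p = 0.000285). None of these overlapped between genotypes, and *Tk2* +/+ replicate 1 was the lowest array for each of them. The summed signal of the group was also lowest there, at 13017 against 16769 and 17616 in the other *Tk2* +/+ arrays. In *Tk2* -/- heart it ran from 27256 to 28685. *Ddit4*, an inhibitor of mTOR, rose too (1.55). The classical targets *Tsc22d3* (0.35, adjusted p = 0.0939) and *Per1* (0.80, adjusted p = 0.0524) did not pass, although *Per1* did with the atrial covariate (adjusted p = 0.0263) and without both arrays low in atrial markers (adjusted p = 0.0188). The receptor gene itself, *Nr3c1* (named after its value was seen), fell (-0.41), and the corticosteroid-activating enzyme *Hsd11b1* (likewise) rose (1.46). With 1 array left out, the call was lost for *Nr3c1* without *Tk2* +/+ replicate 1, 2 or 3 or *Tk2* -/- replicate 1 or 3 (adjusted p = 0.0565 to adjusted p = 0.139).

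The metallothioneins, small metal-binding proteins that glucocorticoids and zinc induce, were part of this rise. *Mt2* went from 209.8, 457 and 495 to 1777, 1893 and 2847 (log2 fold change 2.5, SE 0.30, adjusted p = 0.00082) and its neighbour *Mt1* from 523, 837 and 775 to 1334, 1723 and 1627 (log2 fold change 1.14, SE 0.17, adjusted p = 0.00221). In both genes *Tk2* +/+ replicate 1 was lowest and no signals overlapped, and *Mt3*, the brain form, did not pass (0.27, adjusted p = 0.149). The promoters of the pair are shown because they lie side by side on chromosome 8 and moved together, with the core of the metal response element (TGCNCNC, either strand) in capitals, as before on the strand of each gene (RefSeq, GRCm38.p6).
*Mt2*, chr8:94172368-94172667, plus strand: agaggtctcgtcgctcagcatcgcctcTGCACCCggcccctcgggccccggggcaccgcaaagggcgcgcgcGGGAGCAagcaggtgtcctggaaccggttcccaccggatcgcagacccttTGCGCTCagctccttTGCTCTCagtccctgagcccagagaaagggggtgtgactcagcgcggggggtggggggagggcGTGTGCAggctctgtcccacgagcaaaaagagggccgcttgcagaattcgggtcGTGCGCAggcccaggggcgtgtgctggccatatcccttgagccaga
*Mt1*, chr8:94178839-94179138, plus strand: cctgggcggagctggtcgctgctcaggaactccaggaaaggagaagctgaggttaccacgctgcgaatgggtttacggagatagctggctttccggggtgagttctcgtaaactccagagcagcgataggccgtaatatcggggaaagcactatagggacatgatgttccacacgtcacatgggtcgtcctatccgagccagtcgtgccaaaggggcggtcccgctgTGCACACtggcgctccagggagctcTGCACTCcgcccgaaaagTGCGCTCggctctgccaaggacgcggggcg
The core was found 6 times in *Mt2* and 3 times in *Mt1*, and at least once in 53.6% of all promoters. Of 22 genes of metallothioneins, the acute phase and iron, 7 were higher and 4 lower. *Lcn2* (1.44), *Serpina3n* (1.26) and *Cp* (1.13) were higher, and the transferrin receptor *Tfrc*, through which cells take up iron, fell from 1330.0, 1653 and 1456 to 357, 908 and 74.2 (-2.24). The call did not hold for *Tfrc* without *Tk2* +/+ replicate 1, 2 or 3 or *Tk2* -/- replicate 1 (adjusted p = 0.0725 to adjusted p = 0.085).

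Of 19 circadian clock genes, 8 were higher and 3 lower, with a median of 0.52. As deposited the median was -0.089, where that of all genes was -0.28. *Rora* (1.05), *Ciart* (1.04), *Tef* (0.91) and *Csnk1e* (0.71) rose. Of the activators that drive the loop, *Clock* fell (-0.29) and *Arntl* (0.12, adjusted p = 0.548) and *Npas2* (0.52, adjusted p = 0.0612) did not pass. *Ciart* read 19.8, 37.4 and 50.5 in *Tk2* +/+ and 73.4, 74.3 and 119.7 in *Tk2* -/- heart, with *Tk2* +/+ replicate 1 the lowest. Leaving out 1 array ended the call on *Clock* without *Tk2* +/+ replicate 1 or 3 or *Tk2* -/- replicate 1 or 3 (adjusted p = 0.0664 to adjusted p = 0.103). At what time of day the hearts were taken is not stated in the sources.

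Enzymes of methyl transfer and drug metabolism, best known from liver and lung, were also higher, 14 of 21 (66.7% against 11.4% of all genes) with 2 lower. The group was drawn up with earlier results of these data known, which can favour a high share. Its median was 0.54, and as deposited it was -0.074, where that of all genes was -0.28. The flavin monooxygenase *Fmo2* read 27.9, 45.2 and 115 in *Tk2* +/+ and 778, 366 and 865 in *Tk2* -/- heart (log2 fold change 3.19, SE 0.41, adjusted p = 0.00113), and the methyltransferase *Inmt* 4.02, 8.65 and 16.8 and 115, 83.9 and 152 (log2 fold change 2.36, SE 0.21, adjusted p = 0.000307). For both, *Tk2* +/+ replicate 3 was the highest of its group and *Tk2* -/- replicate 2 the lowest of its own. The rule that named them asked for no overlap. *Cyp1b1* (1.9), *Sult1a1* (1.38) and *Gnmt* (0.74) rose as well and *Nnmt* fell (-0.97).

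Of 32 genes of insulin, IGF and mTOR signalling, 14 were higher and 6 lower, with a median of 0.20 that was below 0 as deposited and with median centring. Among the ligands, *Igf1* fell from 484, 361 and 469 to 312, 265 and 273 (-0.59) and the fetal *Igf2* fell by 0.47 on the log2 scale. The receptor genes *Insr* (0.91) and *Igf1r* (1.23, named after its value was seen) rose. *Igfbp3*, which binds IGF in the blood, went from 162, 253 and 352 to 1290.1, 677 and 1458 (2.08) and *Pik3ip1*, an inhibitor of PI3-kinase, from 141, 109.6 and 105 to 684, 380.0 and 560.0 (2.02). *Eif4ebp1*, which blocks cap-dependent translation, rose by 1.4 on the log2 scale, next to *Sesn1* and *Ddit4* above. The adaptors *Irs1* (0.13, adjusted p = 0.28) and *Irs2* (-0.45, adjusted p = 0.375) did not pass. With 1 array left out, the call was lost for *Igf2* without *Tk2* +/+ replicate 1 or 3 or *Tk2* -/- replicate 2 or 3 (adjusted p = 0.102 to adjusted p = 0.144).

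Genes of protein breakdown were higher too, and *Fbxo32* and *Trim63* among them are also members of the glucocorticoid group. Of 31 genes of protein degradation and autophagy, 16 were higher (51.6%) and 2 lower, with a median of 0.29 that was below 0 as deposited and with median centring. The muscle ubiquitin ligases atrogin-1 (*Fbxo32*, 464, 452 and 412 and 1064, 853 and 1065) and MuRF1 (*Trim63*, 748, 697 and 643 and 1517, 1303 and 1440.1) rose by 1.13 and 1.01, neither with overlapping signals. *Bnip3*, a receptor for the removal of mitochondria, rose from 345, 481 and 611 to 2069, 1278 and 2239 (log2 fold change 1.92, SE 0.24, adjusted p = 0.000993). *Gabarapl1* (1.1) and *Sqstm1* (1.04) of the autophagosome and *Fbxo31* (1.18) rose as well. *Foxo3*, the factor known to switch on several of these genes, rose by 1.28 itself.

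**Figure D3:**
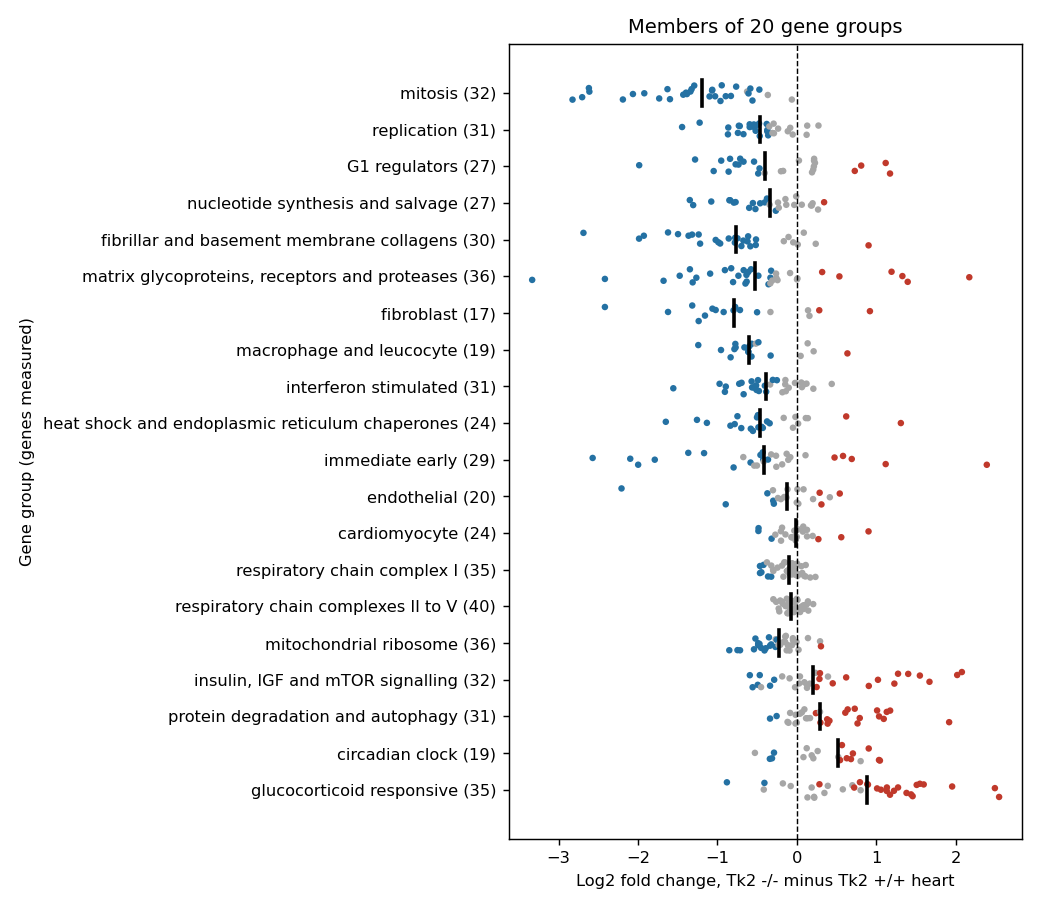
Log2 fold change of every measured member of 20 gene groups, 1 row per group. Each point is 1 gene, red if higher, blue if lower and grey if it did not pass, the black bar is the group's median, and the dashed line is the median of all genes. Mitosis genes lie to the left and genes responding to glucocorticoids to the right.

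The extracellular matrix was lower in *Tk2* -/- heart. Of 30 collagens and collagen-modifying enzymes, 23 were lower (76.7%) and 1 higher, with a median of -0.76. *Col15a1*, a collagen of basement membranes around muscle and capillaries, fell from 675, 565 and 546 to 66.4, 131 and 53.5 (log2 fold change -2.69, SE 0.24, adjusted p = 0.00029). *Col1a1* read 932, 692 and 909 and 366, 360.3 and 314 (log2 fold change -1.24, SE 0.12, adjusted p = 0.00043), *Col3a1* fell by 1.62 on the log2 scale, *Col14a1* by 1.99 and *Col6a3* by 1.93. The collagen chaperone *Serpinh1* fell too (-1.5), and the crosslinking enzyme *Lox*, named after its value was seen, was the higher one (0.90). Of 36 matrix glycoproteins, receptors and proteases, 22 were lower and 6 higher. The integrin *Itgb6*, which activates TGF-β at cell surfaces, read 336, 313 and 233 and 10.8, 30.8 and 6.36 (log2 fold change -3.33, SE 0.25, adjusted p = 0.000257). Periostin (*Postn*), made by fibroblasts of the growing heart, fell from 1919, 1256 and 1543 to 265, 365 and 219 (log2 fold change -2.42, SE 0.19, adjusted p = 0.000269). Fibronectin (*Fn1*, -1.48) and tenascin C (*Tnc*, -1.68) were lower, elastin (*Eln*) did not pass (-0.31, adjusted p = 0.446), and the protease inhibitor *Timp4* rose from 127, 175 and 302 to 1069, 847 and 836 (log2 fold change 2.17, SE 0.25, adjusted p = 0.000699).

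Of 17 fibroblast genes 12 were lower and 2 higher, and these members did not move as one. The matrix proteins *Lum* (-1.06) and *Dpt* (-1.32) fell. *Pdgfra*, the receptor that marks resident cardiac fibroblasts, was slightly higher (0.28), decorin (*Dcn*), a matrix protein too, did not pass (0.16, adjusted p = 0.209) and gelsolin (*Gsn*) rose (0.92), all 3 named after their values were seen. On the deposited scale *Pdgfra* stood at -0.40 and *Dcn* at -0.31. The call did not hold for *Pdgfra* without *Tk2* +/+ replicate 1 or 2 or *Tk2* -/- replicate 1 or 3 (adjusted p = 0.0774 to adjusted p = 0.136). The summed signal of the 17 genes was 16264 to 18927 in *Tk2* +/+ and 11986 to 12885 in *Tk2* -/- heart. In signalling by TGF-β and BMP, 6 of 29 genes were higher and 7 lower, with the ligand *Tgfb2* (-0.45) and the secreted *Fstl1* (-1.37) lower.

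Macrophage and leucocyte genes were lower, 14 of 19 (73.7%) with 1 higher and a median of -0.60. The macrophage receptor *Adgre1* had signals of 119, 90.3 and 97.3 in *Tk2* +/+ and 29, 44.3 and 29.4 in *Tk2* -/- heart (-1.24). *Ptprc*, which encodes CD45 of all leucocytes, fell by 0.57 on the log2 scale and *Cd68* by 0.61, while *Cd163*, of resident macrophages, was the higher one (0.64, named after its value was seen). Interferon-stimulated genes were lower in 18 of 31 and higher in none (median -0.39), with *Isg20* (-1.56) and *Sting1* (-0.97) among them and *Irf1* not passing (-0.34, adjusted p = 0.0812). Of 31 chemokines, cytokines and receptors 11 were lower and 3 higher, with *Cxcl9* at -2.1 and *Cxcl1* at 0.87. Leaving out 1 array ended the call on *Cd163* without *Tk2* -/- replicate 1 or 3 (adjusted p = 0.0603 to adjusted p = 0.0682). The summed signal of the leucocyte markers, 2657 to 3053 in *Tk2* +/+ and 1678 to 1818 in *Tk2* -/- heart, moved with these genes, and its part in their fall was not tested.

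Blood vessel genes differed member by member. The general endothelial markers *Pecam1* (-0.13, adjusted p = 0.217), *Cdh5* (-0.24, adjusted p = 0.075) and *Tek* (-0.12, adjusted p = 0.432) did not pass. Of 20 endothelial genes 3 were higher (15% against 11.4% of all genes) and 5 lower (25% against 16.1%). The apelin pair, peptide and receptor of sprouting vessels, both fell. *Apln* read 236, 334 and 289.5 in *Tk2* +/+ and 31.1, 42 and 42.4 in *Tk2* -/- heart (log2 fold change -2.47, SE 0.14, adjusted p = 9.08e-05) and *Aplnr* 1082, 577 and 744 and 137, 260.2 and 103 (log2 fold change -2.21, SE 0.31, adjusted p = 0.00153), neither with overlap. *Prnd*, which encodes the prion-like protein doppel of developing vessels, fell from 277, 225 and 201 to 5.47, 14.5 and 6.82 (log2 fold change -3.33, SE 0.15, adjusted p = 4.06e-05), close to the floor of the array. The VEGF receptor *Kdr* fell by 0.90 on the log2 scale, whereas *Vegfa* itself did not pass (-0.31, adjusted p = 0.052). In all, 9 of 30 angiogenic genes were lower (30%) and 3 higher (10%). Of 16 smooth muscle and pericyte genes 6 were lower and 1 higher, with *Acta2* (-1.67) the lowest and *Tagln* (-0.11, adjusted p = 0.752) and *Myh11* (-0.14, adjusted p = 0.486) not passing.

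Of 27 genes that respond to low oxygen, 11 were higher and 7 lower, and the members parted. *Bnip3* rose as above, *Cited2* (1.62), *Pfkfb3* and *Hif3a* (1.22) rose, and the oxygen sensor *Egln3*, itself a target, fell from 963, 1539.9 and 1511 to 366, 480.2 and 347 (log2 fold change -1.69, SE 0.19, adjusted p = 0.000621). *Mxi1*, an antagonist of Myc, rose by 1.13 and the lactate enzyme gene *Ldha* fell by 0.32. With 1 array left out, the call was lost for *Ldha* without *Tk2* +/+ replicate 2 or 3 or *Tk2* -/- replicate 1, 2 or 3 (adjusted p = 0.0755 to adjusted p = 0.117).

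Immediate early genes, which answer within minutes to growth signals and handling of the tissue, were lower in 12 of 29 and higher in 5, and the other 12 did not pass. *Fos* read 112, 120.3 and 151 in *Tk2* +/+ and 10.5, 51.6 and 9.29 in *Tk2* -/- heart (log2 fold change -2.0, SE 0.33, adjusted p = 0.00314) and the orphan receptor gene *Nr4a3* 53.2, 472 and 346 and 14.8, 37.5 and 19.2 (log2 fold change -2.57, SE 0.62, adjusted p = 0.0156). *Tk2* +/+ replicate 1 was far below the other *Tk2* +/+ arrays for *Nr4a3*. *Atf3* (-2.1), *Nr4a1* (-1.79) and *Egr1* (-1.37) fell as well, while the phosphatase *Dusp4*, which switches off MAP kinases, rose from 10.9, 9.79 and 20.8 to 206, 63.3 and 195 (log2 fold change 2.39, SE 0.35, adjusted p = 0.00191). Chaperones of the cytosol and endoplasmic reticulum were lower in 16 of 24 and higher in 2 (median -0.46). *Hsph1*, a partner of HSP70, fell from 129.7, 268 and 161 to 37.5, 56 and 45.2 (-1.65), *Sdf2l1* by 1.26 and the central chaperone of the endoplasmic reticulum *Hspa5* by 0.43, while *Herpud1* rose (1.31) and *Hspa8* (-0.17, adjusted p = 0.154) did not pass. The call did not hold for *Nr4a3* without *Tk2* -/- replicate 1 or 3 (adjusted p = 0.0566 to adjusted p = 0.0622) and *Hspa5* without *Tk2* -/- replicate 1 (adjusted p = 0.0535).

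Several of the largest changes fell outside these groups. The prostaglandin D synthase gene *Ptgds* had signals of 151, 91.3 and 137 in *Tk2* +/+ and 1486, 1232 and 1924 in *Tk2* -/- heart (log2 fold change 3.46, SE 0.19, adjusted p = 9.08e-05). The secreted ribonuclease *Rnase1* read 17.5, 15.3 and 15.7 and 231, 75.3 and 430.3 (log2 fold change 2.75, SE 0.46, adjusted p = 0.0033) and *Ahsg*, which encodes the plasma protein fetuin-A, 18.1, 34.4 and 115 and 419.5, 175 and 343 (log2 fold change 2.35, SE 0.46, adjusted p = 0.00685). The rule that named these 3 asked for no overlap, and *Tk2* -/- replicate 2 was the lowest of its group for each. With the atrial covariate *Rnase1* stood at 2.58 (adjusted p = 0.00336) and *Ahsg* at 2.05 (adjusted p = 0.0004). *Adh1*, an alcohol dehydrogenase, rose from 95, 97.6 and 158 to 709.9, 492 and 725 (2.32), the proteoglycan *Spock2* by 2.48 on the log2 scale, the arrestin-like *Arrdc2* by 2.2, the ciliary gene *Ttc25* by 2.19 and the linker histone *H1f2*, whose family shares sequence, by 2.16. The uncharacterized transcript *2210407C18Rik* had the largest decrease, from 1188, 702 and 485 to 6.92, 6.50 and 9.12 (log2 fold change -5.01, SE 0.26, adjusted p = 7.85e-05). Alkaline phosphatase (*Alpl*) fell by 2.38 on the log2 scale and *Nrep*, of wound fibroblasts and growing nerve, by 2.37.

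**Figure D4:**
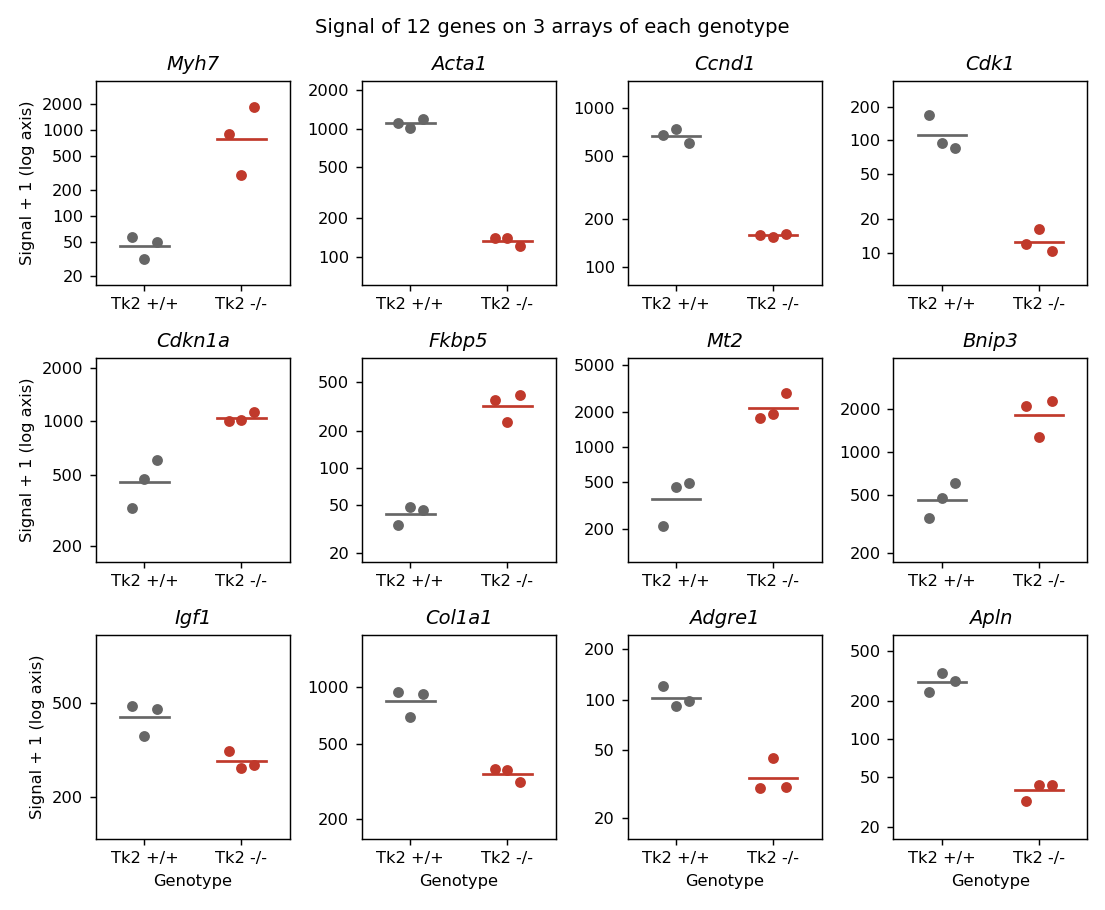
Signal of 12 genes on each heart array (log axis, signal plus 1), with the 3 *Tk2* +/+ arrays in grey and the 3 *Tk2* -/- arrays in red. Horizontal bars are group means on the log scale. The 12 genes were picked among called genes. Their arrays do not overlap between genotypes, which was also so for 42.8% of all genes.

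The 30 genes with the largest changes, 15 each way, were set against skeletal muscle of the same study to see which of them differed from it. For 17 of the 30, heart and muscle differed in the effect of genotype at an adjusted p under 0.05 in limma over 12 arrays, where 10.5% of all genes did, and the 30 had been picked for a large change in heart, which by itself favours a difference. *Ptgds* rose in heart and stood at -0.016 in muscle, *Acta1* fell in heart and stood at -0.059, and *Casq1* at -0.35. *Inmt* (3.82) and *Arrdc2* (3.46) rose more in muscle than in heart, and *Apln* (-3.16) fell more there. For *Prnd* (-4.33 in muscle) the difference rests on the offset, since its *Tk2* -/- heart signals were all below 16, and with an offset of 1 it went from 0.99 to 0.42 (adjusted p = 0.58). With that offset those of *Inmt* (adjusted p = 0.358), *Arrdc2* (adjusted p = 0.123) and *Apln* (adjusted p = 0.0683) did not pass either. The difference of *Arrdc2* missed the threshold without *Tk2* -/- skeletal muscle replicate 2 (adjusted p = 0.109), among other arrays, that of *Inmt* without *Tk2* -/- heart replicate 1 (adjusted p = 0.0755), that of *Apln* without *Tk2* -/- heart replicate 3 (adjusted p = 0.0809) and that of *Prnd* with the values as deposited (adjusted p = 0.0634). For the other 13 no difference passed. Among these *Fkbp5* stood at 3.34 in muscle, *Mt2* at 3.01, *Ccna2* at -2.61 and *Col15a1* at -2.45, which does not show that the tissues respond alike.

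**Figure D5:**
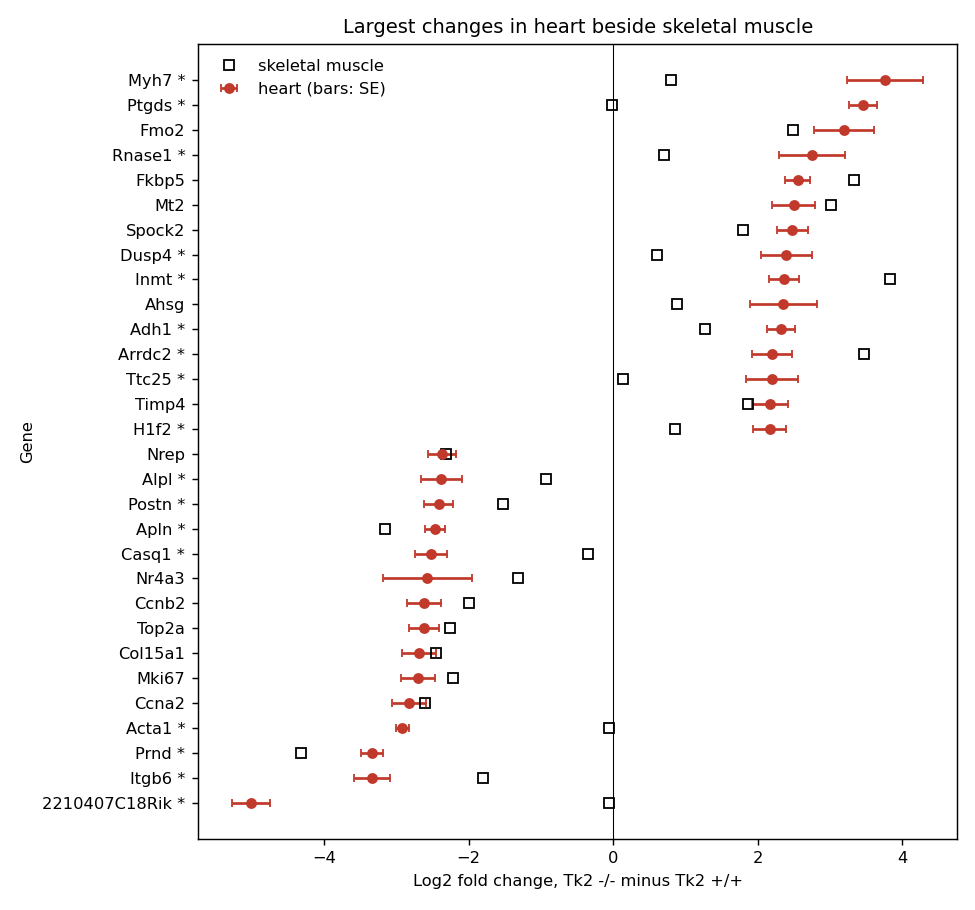
Log2 fold change of the 15 largest increases and 15 largest decreases in heart (filled circles, with SE) and of the same genes in skeletal muscle (open squares). Genes whose effect differed between the tissues at an adjusted p under 0.05 are marked with a star, 17 of 30.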

How the data were processed

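RNA from 6 hearts and 6 hind limb muscles was read on Affymetrix Mouse Gene 1.1 ST arrays, 1 mouse per array within a tissue. The deposited values are probe set intensities on a linear scale that the authors made with Affymetrix Expression Console and PLIER, without versions and without naming a normalization. All columns were used.

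Of 35556 probe sets, GEO's platform annotation gave 21218 a single gene symbol, 1881 several and 12457 none. The 21218 probe sets read 18820 genes, and where a gene had several (1386 genes) the brightest over the 6 heart arrays was kept. Values were taken as log2(signal + 16) and quantile normalized within the heart arrays, and signals printed are back on the linear scale with the offset removed. Fold changes are on the log2(signal + 16) scale and understate the change of dim genes. *Tk2* -/- and *Tk2* +/+ heart were compared with limma 3.58.1 in R 4.3.3, with p-values adjusted by Benjamini-Hochberg across the 18820 genes and called under 0.05, and every adjusted p printed is from limma. The difference between tissues was the interaction of genotype and tissue in 1 limma fit to 12 arrays, each tissue normalized by itself. Hearts and muscles came from 3 mice of each genotype, and that fit took the 12 arrays as independent. The number of arrays limits the precision. Counts and medians of gene groups were set beside those of all genes, and no test was run on a group.

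Genes were named by rule: the 15 largest increases and 15 largest decreases among called genes with no overlap between genotypes and a mean signal of at least 64 in the brighter group, *Tk2*, up to 5 called members with the largest change in each of 50 gene groups (of 51 drawn up, 1 had no measured member), and the first 3 members of each. The rule did not give *Ankrd1*, *Bmp10*, *Corin*, *Cp*, *Fgf21*, *Foxo3*, *Igf1*, *Kif11*, *Ldha*, *Lum*, *Mxi1*, *Prc1*, *Ryr2*, *Tbx18*, *Xirp2*, *Xist* and the genes marked so in the text, which were chosen with their values in view. Members and groups were chosen with earlier results of these data known.

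Alternatives were other scalings, offsets of 1 and 64, leaving out dim genes, other choices of probe set, other variance models, a replicate block, the methods' t-test and leaving out each array. Leaving out both arrays lowest in atrial RNA and an atrial covariate were added after seeing the data. In simulated data 200 of 18820 genes were changed, all with a mean signal above 64, and deviations from group means were shuffled gene by gene. The heart comparison recovered 30.7% of changes of 0.5, 91.6% of changes of 1 and 99.1% of changes of 2 on the log2 scale. There were 7 false calls among 744 over 5 runs. The shuffle removes effects shared by the genes of an array, such as atrial content, and 27.5% of genes were called in the data. These rates therefore do not carry over to dimmer genes or to such array effects. Promoters came from a RefSeq table of GRCm38.p6, and figures were drawn with matplotlib.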

Additional observations from a re-analysis of the deposited data

Results flagged for a closer look

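Heart and skeletal muscle differed in their response to the loss of *Tk2* at 17 of the 30 genes with the largest changes in heart, each by the interaction of genotype and tissue in limma. The values below are the log2 fold change in heart minus that in muscle, and since these genes were chosen for a large change in heart, differences away from muscle were favoured by the choice.

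Of the genes that rose in heart, *Ptgds* differed by 3.47 (adjusted p = 1.33e-05), with muscle means of 32.1 in *Tk2* +/+ and 31.8 in *Tk2* -/-. *Myh7*, already at 1245 in *Tk2* +/+ muscle, differed by 2.96 (adjusted p = 0.0236), and *Ttc25* by 2.06 (adjusted p = 0.0111). *Rnase1* (2.04, adjusted p = 0.0329), *Dusp4* (1.79, 0.0198), *H1f2* (1.31, 0.0106) and *Adh1* (1.05, 0.0374) rose more in heart. *Inmt* (-1.46, 0.0306) and *Arrdc2* (-1.26, 0.0429) rose more in muscle.

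Of the genes that fell in heart, *2210407C18Rik* differed by -4.95 (adjusted p = 4.38e-06), and its muscle means of 12.6 and 11.6 were both below the offset. *Acta1* differed by -2.86 (adjusted p = 4.42e-08) and *Casq1* by -2.18 (adjusted p = 0.000387), 2 genes of skeletal fibres whose muscle means were 7732 and 6050.0 in *Tk2* +/+. *Itgb6* (-1.53, 0.019), *Alpl* (-1.45, 0.0339) and *Postn* (-0.89, 0.0479) fell more in heart. *Apln* (0.69, 0.0236) fell more in muscle, and *Prnd* differed by 0.99 (0.0136), which became 0.42 with an offset of 1 (adjusted p = 0.58). Hearts and muscles came from 3 mice of each genotype, and no fit paired the heart and muscle of 1 mouse. A replicate block joined *Tk2* +/+ and *Tk2* -/- arrays of the same number within a tissue. With that block the differences of *Arrdc2* (adjusted p = 0.059) and *Postn* (adjusted p = 0.0779) did not pass. With some single arrays left out, the differences of *Adh1*, *Alpl*, *Apln*, *Arrdc2*, *Inmt*, *Myh7*, *Postn* and *Rnase1* missed the threshold, and with the values as deposited those of *Adh1*, *Apln*, *H1f2* and *Prnd* did.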

How the results depend on the processing

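The counts of 2149 genes higher and 3024 lower depended most on the scaling, being 319 and 9101 with the values as deposited, 1830 and 6928 with median centring, and 5575 and 2486 with upper quartile scaling. Array weights gave 3232 and 3953, the methods' t-test after Benjamini-Hochberg adjustment 742 and 1082, the same t-test at an unadjusted p under 0.05 with a fold of 2 gave 167 and 311, and the limma p with a fold of 2 gave 178 and 316. With 1 heart array left out, 1042 to 2255 genes were higher and 1753 to 3219 lower, fewest without *Tk2* -/- replicate 1 and most without *Tk2* -/- replicate 2. Higher calls were also over 1.5 times fewer without *Tk2* +/+ replicate 1 (1342) and *Tk2* -/- replicate 3 (1229, with 1879 lower). Cyclic loess, quantile normalization over 12 arrays, both other offsets, leaving out dim genes, the choice of probe set, 4 groups in 1 fit, and a trended robust prior stayed within 1.5 times, as did the counts without the array lacking *Xist* (2031 and 2712), without both arrays lowest in atrial RNA (1723 and 2682) and with the atrial covariate. Of the genes named, the sign turned as deposited for *Arntl* (-0.48), *Cacna1c* (-0.092), *Cd36* (-0.45), *Dcn* (-0.31), *Irs1* (-0.55), *Kcnd3* (-0.32), *Kcnip2* (-0.14), *Pdgfra* (-0.40), *Polg* (-0.37), *Rbm3* (-0.17) and *Tcap* (-0.12), with median centring for *Irs1* (-0.36), *Kcnd3* (-0.13) and *Pdgfra* (-0.22), and with upper quartile scaling for *Myl3* (0.29). Without a change of sign, 22 of 237 named genes lost their call as deposited, among them *Acacb*, *Agtr1a*, *Cdkn1b*, *Corin* and *Nppb*, whose values lay between 0.0094 and 0.08, while 26 gained one. With median centring 16 lost and 21 gained a call, and with the methods' t-test after adjustment 86 lost and 1 gained one. The 17 of 30 genes that differed between tissues became 10 with an offset of 1 and 9 to 16 with 1 array left out, fewest without *Tk2* -/- skeletal muscle replicate 2. The causes were not tested.

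The deviations of same-numbered heart arrays from their group means correlated at -0.187, -0.00832 and 0.0608. The largest correlations joined arrays alike in atrial RNA. They were 0.217 for *Tk2* +/+ replicate 3 with *Tk2* -/- replicate 1, and 0.212 for *Tk2* +/+ replicate 1 with *Tk2* -/- replicate 2. Whether same-numbered hearts shared a litter or batch can therefore not be read from these values. A fit with the replicate block gave 1870 genes higher, 2667 lower and 15 of the 30 different between tissues, and *Clock*, *Dio2* and *Ldha* lost and *Per1* and *Vegfa* gained a call. Of the 32 mitosis genes, 14 had a mean signal of at least 64 in the brighter genotype, and folds of the dimmer ones are less certain. A change common to most genes cannot be seen after normalization.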

Other observations

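Cold-inducible RNA-binding proteins were higher in *Tk2* -/- heart, both named after their values were seen. *Cirbp* read 207, 158 and 199 in *Tk2* +/+ and 757, 556 and 828 in *Tk2* -/- heart (log2 fold change 1.83, SE 0.15, adjusted p = 0.000285), with no overlap, and *Rbm3* 1662, 1748 and 1680.1 and 2320.0, 2130.3 and 2364 (log2 fold change 0.42, SE 0.079, adjusted p = 0.00574, and below 0 as deposited). Of 20 imprinted growth genes, 8 were lower (40% against 16.1% of all genes) and 2 higher, with a median log2 fold change of -0.17. With upper quartile scaling the median was 0.038, where that of all genes was 0.16. *Mest*, expressed from the paternal copy in growing tissue, fell from 694, 439.7 and 501 to 166, 108 and 111 (log2 fold change -1.96, SE 0.19, adjusted p = 0.000393), the Notch-like *Dlk1* by 0.99 and *Ndn* by 0.87 on the log2 scale, while *Peg10* (0.95) and *Magel2* (0.90) rose. *Aldh1a2*, which makes retinoic acid in the epicardium, fell from 141, 94.9 and 81 to 18, 21 and 17.1 (log2 fold change -1.78, SE 0.16, adjusted p = 0.00029), whereas the other epicardial markers *Wt1* (-0.25, adjusted p = 0.239) and *Tbx18* (-0.016, adjusted p = 0.923) did not pass, and of 11 such genes 2 were higher and 1 lower.

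Enzymes of cholesterol and fatty acid synthesis split, with 6 of 26 higher and 8 lower. Squalene synthase (*Fdft1*) rose from 272, 284 and 271 to 743, 574 and 777 (log2 fold change 1.28, SE 0.12, adjusted p = 0.000298) and stearoyl-CoA desaturase (*Scd1*) by 1.31, while *Idi1*, an earlier enzyme of the same pathway as *Fdft1*, fell by 1.0 on the log2 scale and *Sqle*, which acts on the product of *Fdft1*, by 0.77. Of 28 antioxidant genes 3 were higher and 4 lower, with the glutathione transferase *Gstm1* (1.34) and the thioredoxin inhibitor *Txnip* (1.3) the highest that passed. Of 22 genes of the thyroid hormone axis and its targets, 3 were higher and 7 lower. *Hr* (-1.05) and *Dio2* (-0.34) fell, the latter with an adjusted p of 0.141 without both arrays lowest in atrial RNA, and *Klf9* rose (0.89), which glucocorticoids also induce. Leaving out 1 array ended the call on *Scd1* without *Tk2* +/+ replicate 1 or 2 or *Tk2* -/- replicate 1 or 3 (adjusted p = 0.0559 to adjusted p = 0.075) and *Dio2* without *Tk2* +/+ replicate 1 or 3 or *Tk2* -/- replicate 1, 2 or 3 (adjusted p = 0.0597 to adjusted p = 0.116). Of 7 erythroid genes 3 were lower, with the red cell anion exchanger *Slc4a1* at 114, 209 and 257 in *Tk2* +/+ and 32.6, 27.5 and 32.9 in *Tk2* -/- heart (log2 fold change -2.09, SE 0.23, adjusted p = 0.000609) and no overlap. The sum of the 7 signals ran from 2254 to 3065 in *Tk2* +/+ and from 703 to 1588 in *Tk2* -/- heart, and its part in the fall of *Tfrc*, one of the 7, was not tested. Of 10 adipocyte genes 2 were higher and 1 lower, with adiponectin (*Adipoq*) near the floor on all arrays, and of 9 Schwann cell and neuron genes only *Stmn2* passed (-0.67). *Tk2* lies on chromosome 8, which held 4 of the 30 genes with the largest changes and 4.74% of all genes tested. Of the 893 genes there 10.6% were higher and 15.6% lower. The 4 were *Acta1*, *Mt2*, *Dusp4* and *Arrdc2*, and whether linkage to *Tk2* has a part in their values was not tested.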
